A study of Mus musculus with 4 samples.

Results

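The 35 genes described here carry glucose into the cell, break it down to pyruvate, exchange lactate and pyruvate across the membrane and pass pyruvate to the mitochondrion, together with Hif1a. They were chosen by name for their place in the pathway, with earlier results of these data known. All 35 are among the 32285 genes in the files. A member was given a ratio at a time point where both libraries together held at least 20 unique molecular identifiers (UMIs, counted RNA molecules) in keratinocytes, which 34 of the 35 met at both times. The exception was Hkdc1, a hexokinase-like enzyme, with 1 UMI in the 1-day control library and 0 in the other 3. The member least above the limit was Eno3, the muscle enolase, with 154 UMIs at 1 day and 118 at 1 week.

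The study profiled single cells of mouse epidermis after loss of ΔNp63, the p63 isoform of the basal epidermis, in 4 libraries. Control mice carried floxed alleles alone (DNp63fl/fl), and experimental mice carried them with K14-CreT2 (DNp63fl/fl;K14-CreT2), a tamoxifen-inducible Cre driven by the keratin 14 promoter of basal keratinocytes. All groups received tamoxifen by gavage for 5 days at 200 mg/kg, and 1 control and 1 experimental library were made at 1 day and at 1 week. Mice of both sexes aged 2 to 17 months were used, and the skin was digested in 0.25% trypsin at 4 °C or at 37 °C for 2 h. Which digestion, ages, sexes and how many animals went into each library is not stated. With 1 library per group there was no replicate check and no test. Values are levels in CPM, the UMI count of a gene scaled by the total of its set of cells, or log2 ratios of experimental to control CPM. Their 95% intervals are exact binomial intervals that cover counting error only. A ratio past 1.5-fold is given as higher or lower, read against the share of all genes past the same fold. A 3′ kit was used at 1 day and a 5′ kit at 1 week, so levels are set side by side only within a time point.

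The files held 33552 and 32212 barcodes in the 1-day control and experimental libraries and 25039 and 18413 in the 1-week pair, with median UMIs per barcode of 4210, 3488, 1298 and 1617. Of the barcodes that passed the filters, 14.66 to 25.49% were removed as likely doublets. Groups of barcodes whose RNA content varied little between barcodes were set aside, and they were 2.07% and 16.85% of the cells in the 1-day pair and 66.07% and 75.84% in the 1-week pair. The 1-day libraries shared 299 barcodes and the 1-week libraries 661. Pairs from different times, made with different kits, shared 9 to 18 and are no baseline for these. Trp63, whose ΔNp63 isoform was targeted, was lower in experimental keratinocytes, at 394.5 against 131.6 CPM at 1 day and 459.5 against 194.6 CPM at 1 week. The counts do not separate Trp63 isoforms.

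In glycolysis, hexokinase traps glucose inside the cell, phosphofructokinase commits it to breakdown, and the lower steps yield ATP, NADH and pyruvate. Lactate dehydrogenase turns pyruvate into lactate and regenerates NAD+, while the pyruvate dehydrogenase complex turns it into acetyl-CoA in the mitochondrion, and the pyruvate dehydrogenase kinases switch that complex off. The epidermis is known for making much lactate even with oxygen present, and HIF-1, whose regulated subunit is encoded by Hif1a, induces many of these genes in low oxygen.

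RefSeq lists 52 transcription starts for the 35 members in its GRCm38.p6 annotation, and the 250 bases before each start were searched. The core letters bound by hypoxia-inducible factors, ACGTG or GCGTG on either strand, occurred in 39 of the 52 windows, against 38.6% of all 32851 windows of this length. Some windows of the same gene overlap, and in Aldoa, Eno1 and Pfkm the same match lies in more than 1 window. At least 1 match was found for 29 members, and 19 of them had more than 1 in a single window. The E-box CACGTG occurred in 7 of the 52 windows against 6.02% of all, and each E-box also holds the core on both strands. A half-site of the p53 family occurred in 1 of the 52, that of Pgam1, against 7.13% of all. These matches describe letters and not binding. The 4 windows printed here belong to members on which the results turn, hexokinase 2, lactate dehydrogenase A and both lactate transporters. Each is written 5′ to 3′ on the gene's strand, ends at the base before the start, and has the core letters or their reverse complement in capitals.
Hk2 (RefSeq, GRCm38.p6, chr6:82774455-82774704, minus strand): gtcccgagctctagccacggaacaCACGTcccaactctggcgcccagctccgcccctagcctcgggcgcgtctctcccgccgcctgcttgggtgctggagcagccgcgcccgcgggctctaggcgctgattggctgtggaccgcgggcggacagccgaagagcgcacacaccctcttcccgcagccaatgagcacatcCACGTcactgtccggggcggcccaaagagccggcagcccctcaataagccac
Ldha (RefSeq, GRCm38.p6, chr7:46845554-46845803, plus strand): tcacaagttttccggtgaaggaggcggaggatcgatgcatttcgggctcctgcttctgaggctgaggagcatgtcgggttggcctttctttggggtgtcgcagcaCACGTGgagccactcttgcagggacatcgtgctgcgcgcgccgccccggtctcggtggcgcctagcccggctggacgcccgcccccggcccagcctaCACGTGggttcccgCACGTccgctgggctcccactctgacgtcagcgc
Slc16a1 (RefSeq, GRCm38.p6, chr3:104638414-104638663, plus strand): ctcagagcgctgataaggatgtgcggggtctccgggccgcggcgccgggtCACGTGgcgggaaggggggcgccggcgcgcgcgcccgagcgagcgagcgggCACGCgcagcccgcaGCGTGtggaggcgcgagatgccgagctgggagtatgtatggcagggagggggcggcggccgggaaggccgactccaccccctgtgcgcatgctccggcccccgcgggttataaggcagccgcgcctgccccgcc
Slc16a3 (RefSeq, GRCm38.p6, chr11:120948817-120949066, plus strand): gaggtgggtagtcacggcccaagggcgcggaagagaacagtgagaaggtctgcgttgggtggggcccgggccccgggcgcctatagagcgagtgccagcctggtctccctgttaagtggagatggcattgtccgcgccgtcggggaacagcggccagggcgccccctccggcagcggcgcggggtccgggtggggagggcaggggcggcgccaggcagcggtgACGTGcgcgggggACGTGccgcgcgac
The window of Hk2 held 2 matches, that of Ldha 5, that of Slc16a1 4 and that of Slc16a3 2, and in Ldha and Slc16a1 some matches lie in E-boxes, of which they hold 2 and 1. A second start of Ldha held 1 match.

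In the control libraries the class of cells with the highest level was the same at 1 day and at 1 week for 32 of the 34 members, and in 22 it stood above the next class beyond counting error in both libraries. The members were kept out of the genes used to cluster the cells, and the classes are given as a description, with no test. Sebaceous-like cells had the highest level of 13 members at each time, and basal-like cells of 8 at 1 day and 9 at 1 week. Granular-like cells, the outermost living layer, had the lowest level of 24 members at 1 day and of 20 at 1 week. At 1 week these were 322 cells with a median of 715.5 UMIs, mostly from clusters led by Gm26917 and Lars2 or by Lce1 genes. The first of these clusters, 166 cells, had none of the listed granular markers among its 10 leading genes. Of 6 classes in all, suprabasal-like cells led in 4 members at each time and immune cells in 5 and 6.

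The sebaceous-like cells, which make lipid, led at both times in Pdha1, Pdhb, Dlat, Dld, Mpc1 and Mpc2, genes of pyruvate import and oxidation. They also led in the kinase gene Pdk1 and in Gpi1, Pfkm and Aldoa of glycolysis. For Gpi1 at 1 week and Pfkm at both times, the lead was not beyond counting error. In sebaceous-like cells Pdha1 was at 221 CPM at 1 day and 239 CPM at 1 week, and Aldoa at 944.5 and 1245 CPM. Mpc1 and Mpc2, the subunits of the mitochondrial pyruvate carrier, stood at 604 and 1081 CPM there at 1 day and at 570.3 and 893 CPM at 1 week. Ldhb, the lactate dehydrogenase subunit of oxidative tissues, was at 623 CPM at 1 day and 676 CPM at 1 week, and it made up 68.9% and 68.4% of the Ldha and Ldhb UMIs of these cells. In all keratinocytes together that share was 10.7% and 10.9%. Pdk4, a pyruvate dehydrogenase kinase of lipid-burning tissues, and Slc16a1, the lactate and pyruvate transporter MCT1, also had their highest levels in sebaceous-like cells. Basal-like cells led in Pkm (350 and 422 CPM), Ldha (360 and 508 CPM), Pfkp (193 and 244 CPM), Hk1 (42.6 and 72.2 CPM) and Hif1a (472 and 467 CPM). Slc16a3, the lactate exporter MCT4, was at 20.4 and 41.8 CPM in basal-like cells and had 0 UMIs in sebaceous-like cells of either control library. Suprabasal-like cells led in Eno1 (137 and 309 CPM) and immune cells in Hk2 (147 and 87.3 CPM) and Gapdh (763 and 1199 CPM).

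**Figure D1:**
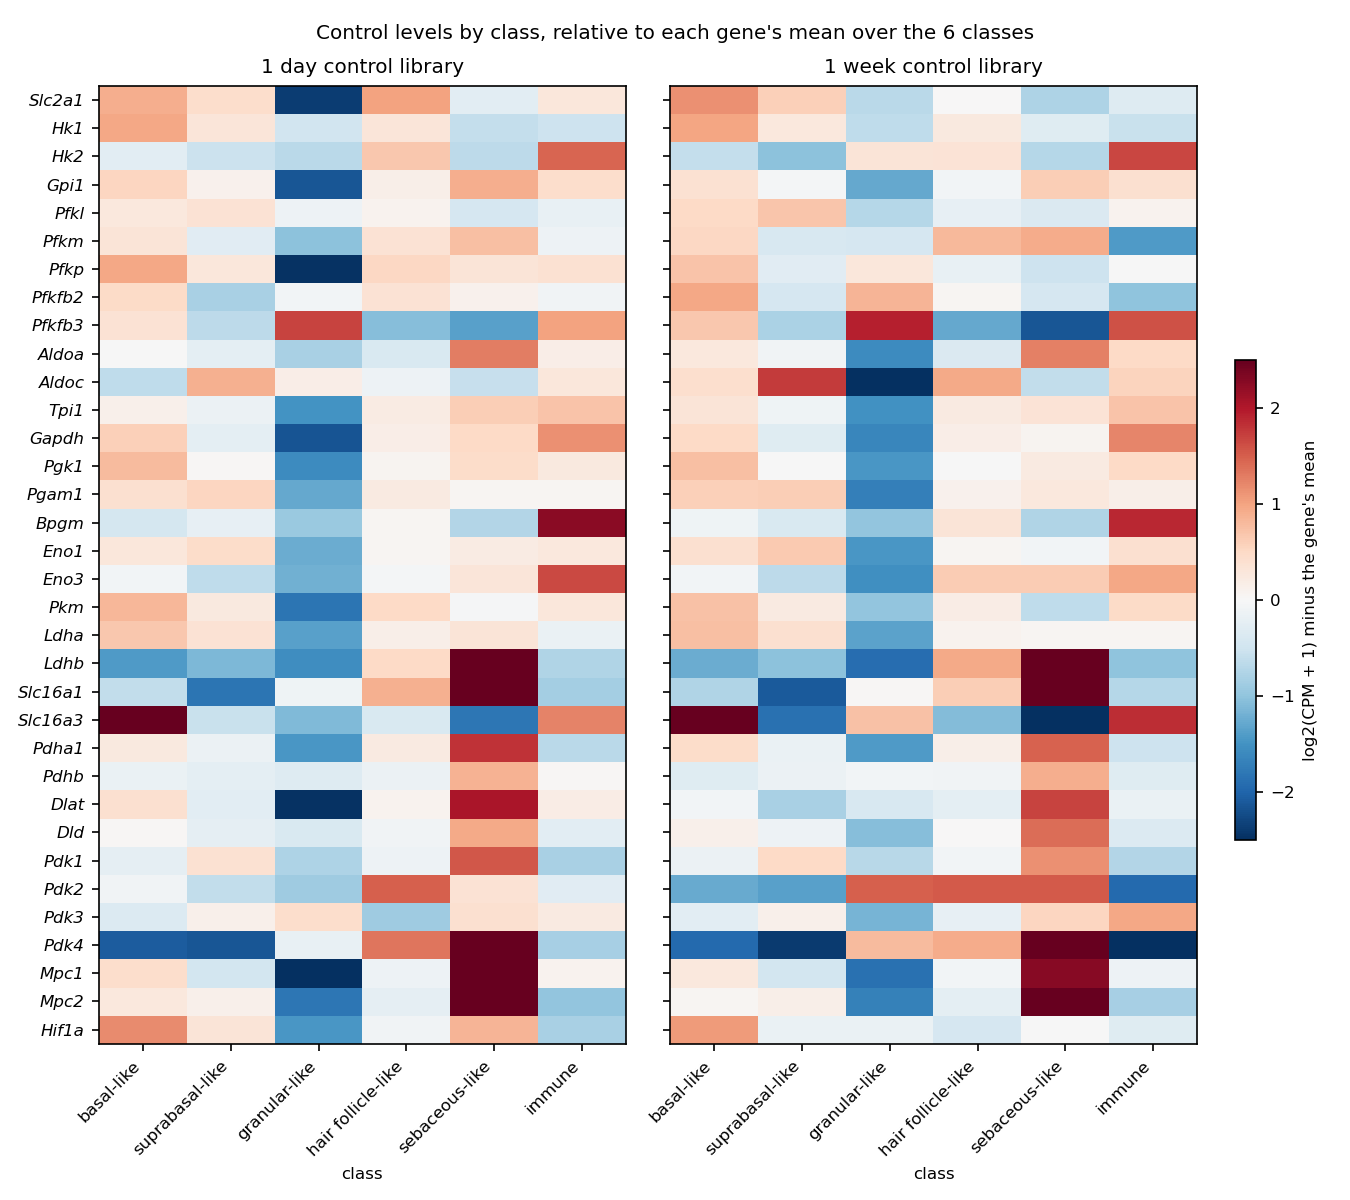
Level of each of the 34 members in 6 classes of cells in the control libraries, 1 day on the left and 1 week on the right, as log2(CPM + 1) minus the gene's mean over the classes, with values past the ends of the colour bar drawn at its ends. The sebaceous-like column holds the highest level of 13 members at each time, and the granular-like column the lowest of 24 and 20.

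In keratinocytes as a whole, 4 of the 34 members were higher in the experimental library at 1 day, Hk2, Pfkfb3, Slc16a1 and Pdk3, and 1 was lower, Slc16a3. The share of all 14728 genes that were higher was 13.6%, and 7.19% were lower, so the members stood near or under this background. The median log2 ratio was 0.08 over the members and 0.03 over all genes. At 1 week, 11 members were higher, Hk2, Tpi1, Gapdh, Pgk1, Aldoa, Eno1, Pkm, Ldha, Slc16a1, Pdk2 and Pdk4, against 21.6% of all 13969 genes, and 2 were lower, Hif1a and Eno3, against 9.56% of all. Eno3 rests on 88 and 30 UMIs, with an interval of -1.26 to 0.01 that includes no difference. Genes of skeletal muscle, 8 listed, summed to 17.4 and 5.80 CPM in the same cells, and their part in the ratio of this muscle enolase was not tested. The median was 0.30 over the members and 0.14 over all genes. Hk2 and Slc16a1 were higher at both times, though at 1 day short of the fold under 7 alternatives for Hk2 and 4 for Slc16a1. At 1 week Slc16a1, 0.86, was 0.37 as a mean of the CPM of single cells and -0.18 in hair follicle-like cells alone. With TMM scaling the median of all genes at 1 week moved from 0.14 to -0.03, and 8 members were higher, with Ldha, Aldoa and Pgk1 no longer past the fold. At 1 day 2 members were higher with this scaling, since Hk2 and Pfkfb3 fell short of it, at 0.54 and 0.56. The shares of all genes past the fold were taken by CPM alone. Counts with TMM scaling, here and below, therefore have no share to be read against.

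The mix of keratinocyte classes moved with the group. Basal-like and suprabasal-like cells were 5545 and 5295 of 20823 keratinocytes in the 1-day control library and 1190 and 714 of 14473 in the experimental library. In the 1-week pair they were 1943 and 850 of 5781 against 15 and 5 of 2952. Genes induced by tissue dissociation and stress, 13 listed, summed to 4258 against 6046 CPM at 1 day and 9561 against 13330 CPM at 1 week. Genes of immune cells, 3 listed, summed in keratinocytes to 16.6 against 28.3 CPM at 1 day and 4.30 against 14.2 CPM at 1 week. The part of the cell mix and of these genes in the ratios of all keratinocytes was not tested, and values within classes follow.

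**Figure D2:**
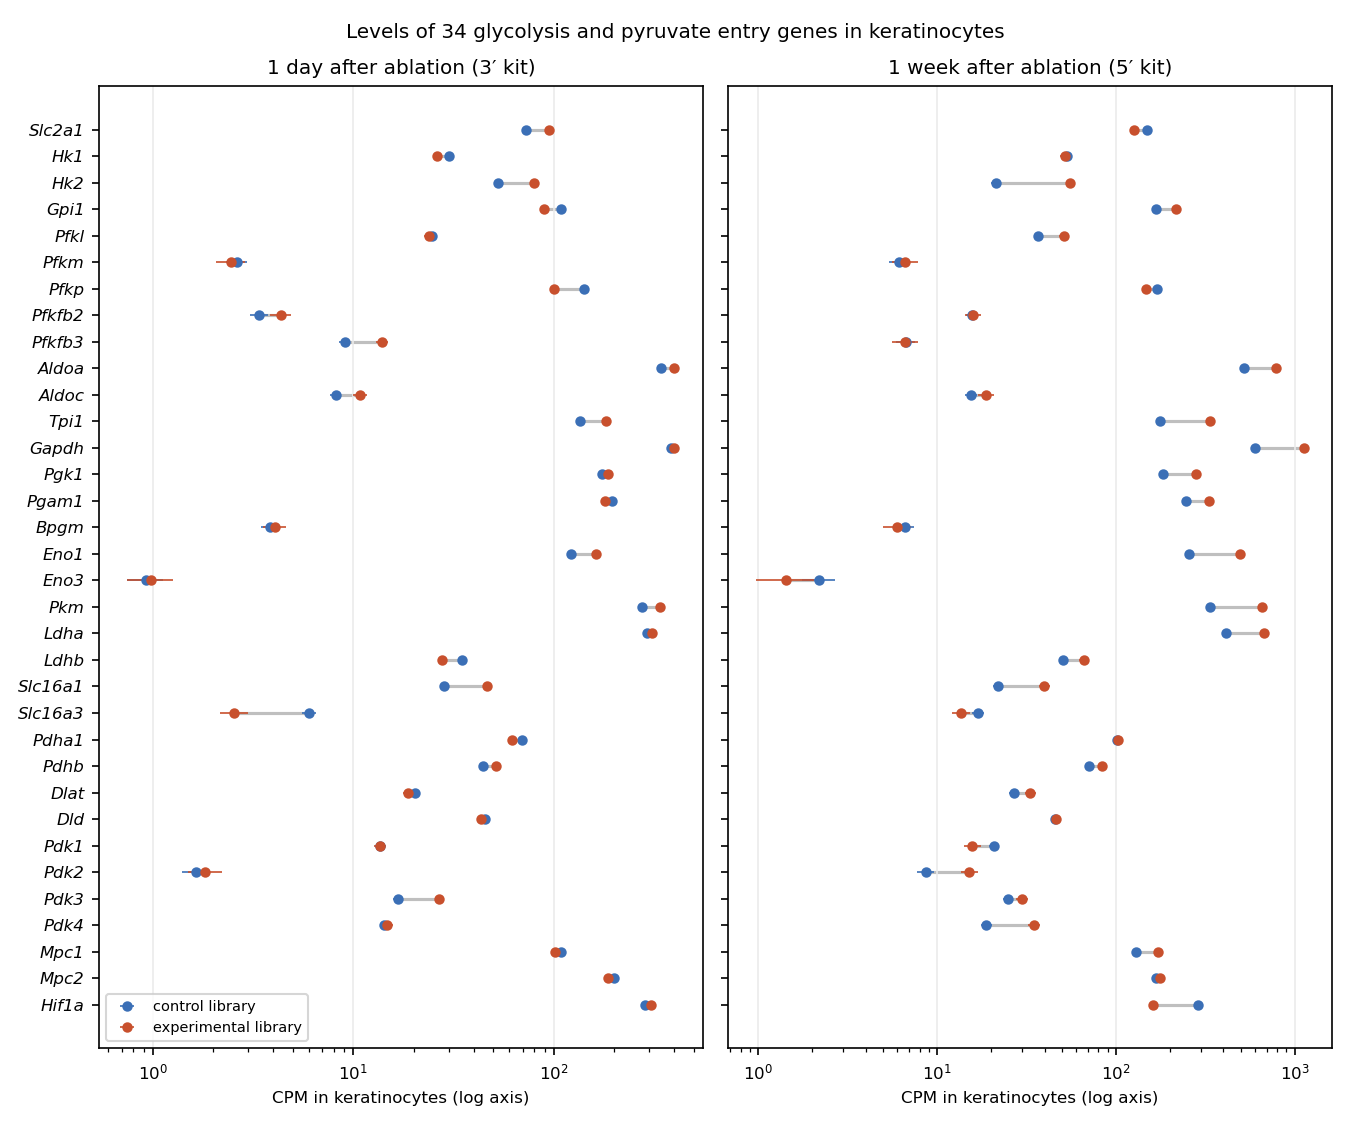
Level of each of the 34 members in keratinocytes in CPM (log axis), with bars for the 95% counting intervals, the control library in blue and the experimental library in orange, 1 day on the left and 1 week on the right. At 1 week the orange points of Eno1, Pkm, Gapdh, Tpi1 and Ldha lie right of the blue ones, and that of Hif1a lies left.

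Among the genes of glucose entry and trapping, Slc2a1, which encodes the glucose transporter GLUT1, was at 72.5 CPM in control and 94.4 CPM in experimental keratinocytes at 1 day, and at 149 and 127 CPM at 1 week. The experimental library was thus above the control at 1 day and below it at 1 week, by log2 ratios of 0.38 (0.33 to 0.43) and -0.24 (-0.30 to -0.17), neither past 1.5-fold. Hk2, the inducible hexokinase, was at 52.9 and 79.6 CPM at 1 day and at 21.4 and 55.7 CPM at 1 week. It was higher in the experimental library of both pairs, with log2 ratios of 0.59 (0.53 to 0.65) and 1.38 (1.25 to 1.51). Hk1, the housekeeping hexokinase, was at 29.99 and 26.2 CPM at 1 day and at 53.6 and 52.0 CPM at 1 week, closer between the libraries than Hk2. Hk2 therefore made up 63.8% of the Hk1 and Hk2 UMIs in the control and 75.2% in the experimental library at 1 day, and 28.5% and 51.7% at 1 week.

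At the committed steps, Pfkp, the platelet-type phosphofructokinase, was at 142 and 99.9 CPM in control and experimental keratinocytes at 1 day and at 170.0 and 148 CPM at 1 week. It was below the control at both times, at -0.51 (-0.55 to -0.47) and -0.20 (-0.26 to -0.14), short of 1.5-fold. Pfkp was 83.9% of the UMIs of the 3 phosphofructokinase genes in the 1-day control and 79.2% in the experimental library, and 79.8% and 71.9% at 1 week. Pfkl, the liver type, was at 24.6 and 23.8 CPM at 1 day and at 36.8 and 51.1 CPM at 1 week. Pfkm, the muscle type, was at 2.63 and 2.46 CPM at 1 day and at 6.11 and 6.66 CPM at 1 week, with no difference beyond counting error. Pfkfb2 and Pfkfb3 control the activator fructose 2,6-bisphosphate. Pfkfb2 was at 3.40 and 4.34 CPM at 1 day and at 15.8 and 15.95 CPM at 1 week, short of the fold at both. Pfkfb3 was at 9.08 and 13.9 CPM at 1 day, higher by 0.61 (0.47 to 0.75) but by 0.56 with TMM scaling, short of the fold, and at 6.68 and 6.66 CPM at 1 week.

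No gene from aldolase to pyruvate kinase was past 1.5-fold at 1 day, when Tpi1 and Eno1 were above the control by 0.44 and 0.41. At 1 week Aldoa, Tpi1, Gapdh, Pgk1, Eno1 and Pkm were higher and Eno3 lower, where 21.6% and 9.56% of all genes were. Aldoc, Pgam1 and Bpgm were short of the fold, as were Aldoa and Pgk1 with TMM scaling, at 0.44 each. Gapdh, the NADH-forming dehydrogenase, was at 385 and 398 CPM at 1 day and at 601 and 1123 CPM at 1 week. Only the 1-week pair was apart by more than 1.5-fold, with log2 ratios of 0.05 (0.02 to 0.07) and 0.90 (0.88 to 0.93). Pkm, pyruvate kinase, was at 276 and 338 CPM at 1 day and at 337 and 657 CPM at 1 week, with log2 ratios of 0.29 (0.27 to 0.32) and 0.96 (0.93 to 1.00). The counts do not separate its M1 and M2 forms. Eno1, enolase, was at 122 and 163 CPM at 1 day and at 255 and 494 CPM at 1 week. Tpi1, triose phosphate isomerase, was at 135 and 183 CPM at 1 day and at 176 and 338 CPM at 1 week. Aldoa and Pgk1, aldolase and phosphoglycerate kinase, were also higher at 1 week, with log2 ratios of 0.61 each. Aldoc, the brain-type aldolase, was at 8.16 and 10.9 CPM at 1 day and at 15.5 and 18.9 CPM at 1 week, above the control and short of the fold at both. Bpgm was at 3.85 and 4.05 CPM at 1 day and at 6.63 and 5.99 CPM at 1 week, with no difference beyond counting error. Pgam1, phosphoglycerate mutase, was above the control at 1 week and short of 1.5-fold, at 0.42. Processed pseudogenes of several of these genes, Gapdh and Pgk1 among them, and Eno1b, a near copy of Eno1, can share reads, and how those were counted is not given in the sources used here.

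**Figure D3:**
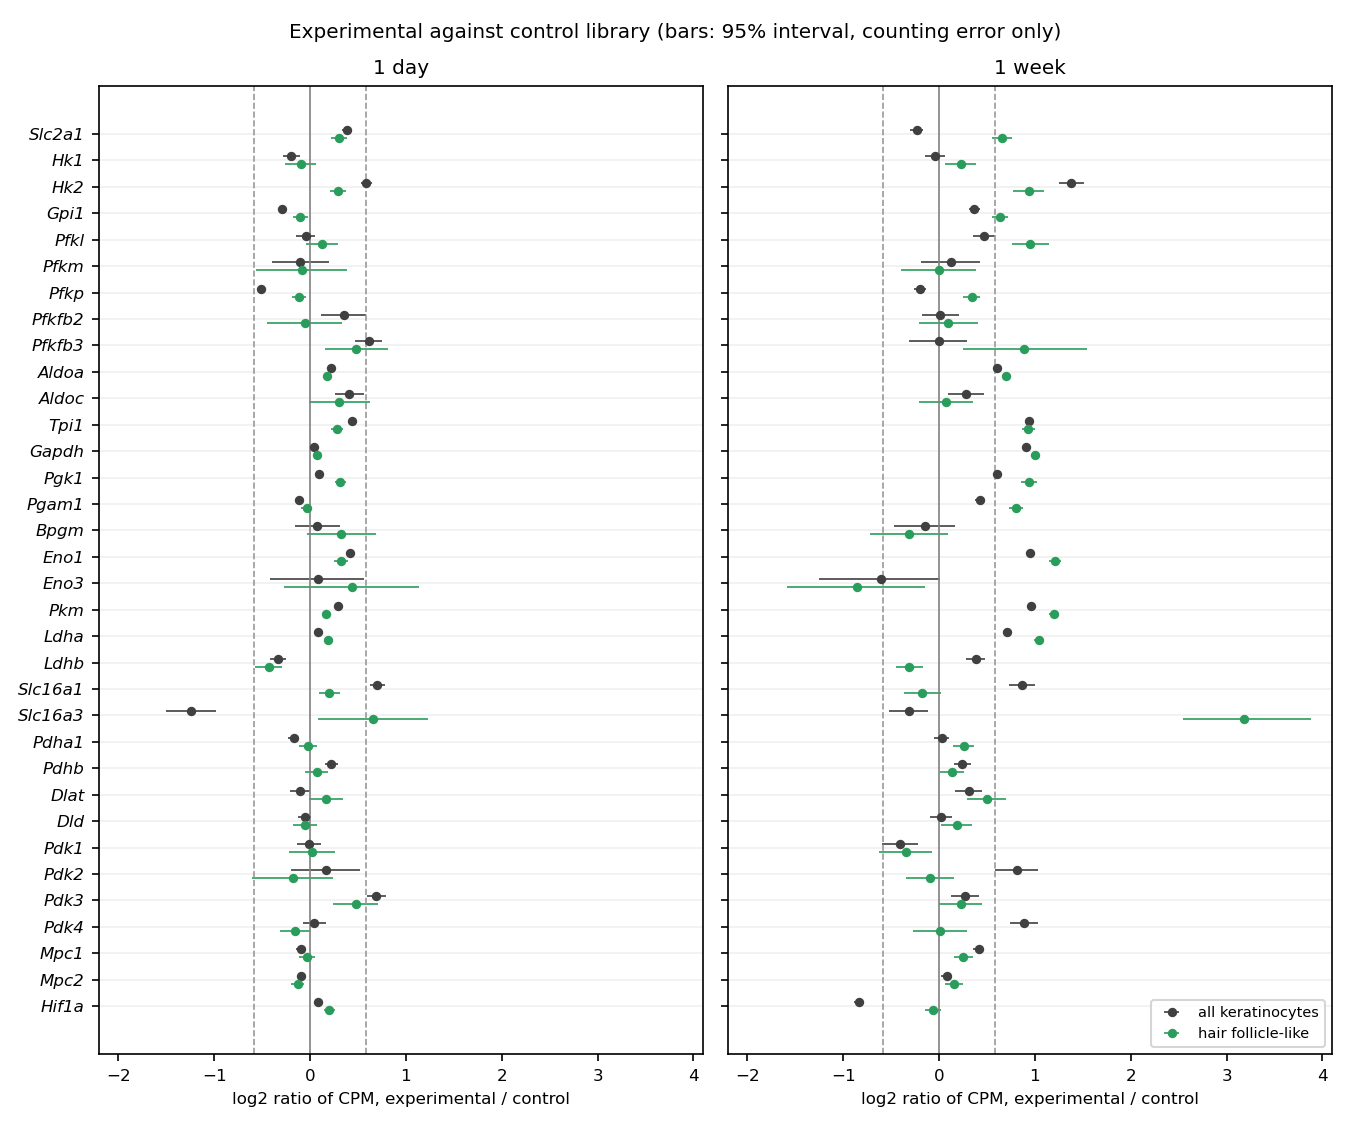
Log2 ratio of experimental to control CPM for each of the 34 members, in all keratinocytes (dark) and in hair follicle-like cells (green), 1 day on the left and 1 week on the right, with bars for the 95% counting intervals and dashed lines at 1.5-fold. At 1 week Eno1, Pkm, Gapdh, Tpi1, Hk2 and Ldha lie past the upper line in both sets, while Hif1a is past the lower line in all keratinocytes alone.

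In lactate handling, Ldha was at 293 and 310 CPM at 1 day and at 414 and 674 CPM at 1 week. The 1-day libraries were close and the 1-week libraries apart, with log2 ratios of 0.08 (0.05 to 0.11) and 0.70 (0.67 to 0.74). Ldhb was at 34.9 and 27.7 CPM at 1 day and at 50.6 and 66.1 CPM at 1 week, below the control at 1 day and above it at 1 week, by -0.33 (-0.42 to -0.25) and 0.38 (0.28 to 0.48). Slc16a1 was at 28.4 and 46.2 CPM at 1 day and at 22.0 and 40.0 CPM at 1 week. It was higher in the experimental library of both pairs, by 0.70 (0.63 to 0.78) and 0.86 (0.72 to 1.00). Slc16a3 went the other way, at 6.05 and 2.56 CPM at 1 day and at 17.0 and 13.7 CPM at 1 week, with log2 ratios of -1.24 (-1.51 to -0.98) and -0.32 (-0.52 to -0.12). Of the UMIs of both transporters, Slc16a3 was 43.7% in the 1-week control and 25.5% in the 1-week experimental library. In hair follicle-like cells alone its log2 ratio had the opposite sign, at 0.66 at 1 day and 3.18 at 1 week. In a suprabasal-like cluster led by Mt4 at 1 day it was 1.44 (-0.07 to 2.67), on 49 control and 6 experimental UMIs. In basal-like cells at 1 day it was lower, as given below.

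At pyruvate entry, the subunits of pyruvate dehydrogenase and its partner enzymes lay close to the control at both times. Pdha1, the catalytic subunit, was at 69.5 and 61.7 CPM at 1 day and at 102 and 104 CPM at 1 week, and Dld, the shared dehydrogenase, was at 45.3 and 43.6 CPM and at 46.0 and 46.6 CPM. Pdhb, the other subunit of the first enzyme, was at 44.3 and 51.7 CPM at 1 day and at 70.7 and 83.6 CPM at 1 week. Dlat, the acetyltransferase, was at 20.2 and 18.8 CPM at 1 day and at 26.9 and 33.3 CPM at 1 week. None of these subunits was past the fold, while the kinases differed among themselves. Pdk1 was at 13.7 and 13.6 CPM at 1 day and at 20.8 and 15.8 CPM at 1 week, with log2 ratios of -0.01 (-0.14 to 0.12) and -0.40 (-0.59 to -0.22). Pdk3 was at 16.7 and 26.9 CPM at 1 day, higher by 0.69, and at 24.8 and 29.9 CPM at 1 week, short of 1.5-fold. Pdk4 was at 14.2 and 14.7 CPM at 1 day and at 18.9 and 34.9 CPM at 1 week, and only the 1-week pair was apart, at 0.05 (-0.08 to 0.17) and 0.88 (0.74 to 1.03). The 1-week ratio of Pdk4 stayed past the fold under 12 of 14 alternatives and was 0.01 in hair follicle-like cells alone. Pdk2 at 8.65 and 15.2 CPM was also higher at 1 week. The carrier genes Mpc1 and Mpc2 were at 109 and 102 CPM and at 200 and 187 CPM at 1 day, and at 129.7 and 173 CPM and at 168 and 178 CPM at 1 week, so Mpc1 was above the control at 1 week by 0.41.

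Hif1a was at 286 and 304 CPM at 1 day and at 287 and 161 CPM at 1 week. Its mRNA was level with the control at 1 day, at 0.09 (0.06 to 0.11), and lower at 1 week, at -0.84 (-0.89 to -0.78). HIF-1α protein is controlled largely by its breakdown, which these counts do not measure.

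Hair follicle-like cells were plentiful in all 4 libraries, 9118 control and 5912 experimental at 1 day, then 2409 and 1959 at 1 week, and they allowed the comparison within one class. At 1 day only Slc16a3 of the 34 members was higher, at 1.68 against 2.66 CPM, where 8.69% of all 13305 genes were, and none was lower, where 3.34% were. That call rests on few UMIs, 69 over the hashtag groups described below. Slc16a3 was at 1.72, 1.81 and 2.58 CPM in the control groups and at 1.84, 7.33 and 1.96 CPM in the experimental groups, which overlapped. At 1 week 14 members were higher, where 10.5% of all 12923 genes were, and Eno3 was lower, where 8.65% were. The median log2 ratio at 1 week was 0.25 over the members and 0.06 over all genes. The stress and dissociation genes differed less here than in all keratinocytes, by 0.27 at 1 day and 0.11 at 1 week. Trp63 in these cells was at 419 against 247 CPM at 1 day and 470.2 against 261 CPM at 1 week.

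Eno1 in hair follicle-like cells was at 202 CPM in the 1-week control and 468 CPM in the experimental library, a log2 ratio of 1.21 (1.15 to 1.28). Pkm was at 286 and 657 CPM, Ldha at 319 and 659 CPM and Gapdh at 577 and 1152 CPM, with log2 ratios of 1.20, 1.05 and 1.00. All 4 were thus further from the control here than in all keratinocytes. Upstream, Hk2 was higher at 34.3 against 65.5 CPM, Pfkl at 24.8 against 48.1 CPM, Slc2a1 at 95.3 against 150.1 CPM and Gpi1, the isomerase between hexokinase and phosphofructokinase, at 146 against 228 CPM. For Slc2a1 this is the opposite direction to all keratinocytes at 1 week. Hif1a, at 167 against 159.8 CPM, and Slc16a1 and Pdk4, at -0.18 and 0.01, were close to the control in this class, unlike in all keratinocytes. Ldhb was short of the fold at 67.7 against 54.6 CPM, and its share of the lactate dehydrogenase UMIs was 17.5% in the control and 7.65% in the experimental library.

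The highest ratio in hair follicle-like cells belonged to Slc16a3, with 22 UMIs (1.68 CPM) in the 1-week control and 219 UMIs (15.2 CPM) in the experimental library. The log2 ratio was 3.18 (2.54 to 3.88), and the share of Slc16a3 in the UMIs of both transporters was 4.65% and 33.3%. Most of these UMIs lay in a cluster led by Fst, with 19 UMIs (3.47 CPM) and 186 UMIs (27.8 CPM). The other 3 clusters of both libraries held 0 to 2 UMIs in the control and 2 to 6 in the experimental library. A cluster led by Klk13, of 76 cells from the experimental library alone, held the other 20 UMIs at the higher level of 58.95 CPM. Its leading genes included S100a8, S100a9, Krt6b, Sprr1b and Sprr2d, and Krt6a was the only listed follicle marker among them.

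The same class was also read cluster by cluster, each named by its leading gene. In the Fst-led cluster, 838 control and 591 experimental cells, 13 of 34 members were higher and 1 lower, against 16.4% and 8.29% of all genes. In the Krt79-led cluster these numbers were 11 and 1 of 31, against 13.1% and 8.15%, and in the Fgf18-led cluster 6 and 1 of 26, against 13.5% and 11.4%. In the Ccn2-led cluster, the one with the most cells, 5 of 32 were higher and 2 lower, against 11.4% and 10.9%. Eno1, Pkm and Ldha were higher in each of the 4, with Eno1 at 0.97, 0.84, 1.33 and 0.76 in the Ccn2-, Fgf18-, Fst- and Krt79-led clusters. Hk2 was higher in each as well, at 1.15, 1.20, 0.59 and 0.96. Gapdh was past the fold in 3 of them and at 0.32 in the Ccn2-led cluster. Without a Klk13-led cluster of 76 cells, found in the experimental library alone, 13 members of the class were higher and 1 lower, against 10.0% and 8.66% of all genes.

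In basal-like cells at 1 day, 3 of 34 members were higher and 2 lower, where 16.5% and 9.12% of all genes were. Tpi1 was at 139 CPM in control and 263 CPM in experimental cells, and Slc16a3 was at 20.4 and 9.64 CPM, lower by 1.08 on the log2 scale. A cycling cluster with Ube2c, Top2a and Mki67 among its leading genes made up 561 of the 5545 control and 526 of the 1190 experimental basal-like cells. Without that cluster Tpi1 was at 118 and 139 CPM, short of the fold, while Slc16a3 was at 20.1 and 9.79 CPM, still lower. The numbers without the cluster were 2 higher and 1 lower, against 11.9% and 10.4% of all genes. Slc2a1 was above the control with and without the cluster, at 0.58 and 0.52. Only 15 basal-like and 5 suprabasal-like cells remained in the 1-week experimental library, under the 20 needed for a ratio.

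Suprabasal-like cells at 1 day had 4 of 33 members higher and 3 lower, where 12.6% and 14.6% of all genes were. Slc16a1 was at 7.12 CPM in control and 13.6 CPM in experimental cells, higher by 0.94, and Pdk3 was higher by 0.62. Pdha1 was lower, at 56.3 against 37.2 CPM. The others rested on 1 to 10 UMIs in the experimental library. The class held different parts of its clusters in each library, with 4264 control and 358 experimental cells in a cluster led by Mt4, and 1031 and 356 in a cluster led by Ivl. Read apart, 3 of 32 members were higher and 1 lower in the first, where 17.4% and 13.2% of all genes were. In the second 2 of 30 were higher and 2 lower, against 8.02% and 13.3%. Slc16a1 was higher in both, at 8.05 against 17.9 CPM and at 5.23 against 11.0 CPM, each on 22 experimental UMIs. Pdk3 and Pdha1 were short of the fold in both clusters.

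Granular-like cells at 1 day, 241 control and 778 experimental, stood apart from the other classes. Of 29 members given a ratio, 22 were higher and 2 lower, where 16.0% and 11.7% of all genes were. The median log2 ratio was 1.01 over the members and 0.03 over all genes. Eno1 was at 42.0 CPM in control and 133 CPM in experimental cells, a log2 ratio of 1.66 (1.29 to 2.05). Tpi1 was at 44.5 and 131 CPM, Pkm at 54.5 and 152 CPM, Ldha at 87.1 and 224 CPM, and Slc16a1 at 25.7 and 69.9 CPM. All of these were higher in the experimental cells. The 2 lower members were Pfkfb3, at 41.4 against 25.2 CPM, and Ldhb. One cluster, led by Ereg and Hrnr, held most cells of the class in both libraries, 212 and 720, and within it 22 members were again higher and 2 lower, against 14.7% and 13.5% of all genes. The median depth was 6300 UMIs per control cell and 4340 per experimental cell.

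At 1 week 18 of 30 members were higher and 6 lower in granular-like cells, where 29.8% and 40.4% of all genes were. The control cells came mostly from a Gm26917- and Lars2-led and an Lce1-led cluster and the experimental cells from a Slurp1- and Hrnr-led and an Rptn- and Flg-led cluster, so the 2 libraries hold different cells here. The median depth also differed, at 715.5 and 2526 UMIs per cell.

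In sebaceous-like cells, 2 of 26 members were higher at 1 day, Slc2a1 and Hk2, where 17.3% of all genes were. Ldhb was lower, at 623 against 388 CPM, where 7.63% of all genes were, and its share of lactate dehydrogenase UMIs was 68.9% and 56.5%. These values set unlike cells side by side: all 323 control cells lay in a cluster led by Plin2, while the experimental cells were 172 of that cluster and 83 of a cluster led by Elovl6 that the control did not hold. Within the Plin2-led cluster 1 of 26 members was higher and 1 lower, where 13.1% and 7.96% of all genes were. Slc2a1 was still higher there, at 35.4 against 62.8 CPM, while Hk2 and Ldhb were short of the fold, Ldhb at 623 against 431 CPM. The lower member there was Pfkl, on 33 and 9 UMIs. At 1 week the numbers were 9 higher and 2 lower of 28, against 20.3% and 13.3% of all genes, on 134 and 64 cells. Mpc1 was at 570.3 CPM in control and 1471 CPM in experimental cells, a log2 ratio of 1.37, and Gapdh, Pkm, Ldha and Eno1 were higher by 0.99 to 1.16. The share of Ldhb was 68.4% and 47.3%. Keratinocytes without a class came from different clusters in the 2 libraries, at 1 day a cycling cluster in the control and mostly an Slpi- and Krt6b-led cluster of 4590 cells in the experimental library. Of their members, 5 of 34 were higher and 12 lower at 1 day, where 19.8% and 39.4% of all genes were, and 14 and 3 of 29 at 1 week, against 17.9% and 38.2%. In the 1-week pair the control cells were a cycling cluster of 123, led by Top2a. Of the 363 experimental cells, 360 were a cluster led by 2610528A11Rik. By its markers that cluster was first named Langerhans or dendritic cell, then kept here for its keratinocyte markers. The median depth was 11660 UMIs per control cell and 1346 per experimental cell.

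A population led by Krt8, a keratin of simple epithelia, was found almost only in the experimental libraries, with 4617 cells at 1 day and 229 at 1 week against 1 and 0 in the controls. It is not counted among the keratinocytes above. Set against the other keratinocytes of the same library, 3 of 34 members were higher and 4 lower at 1 day, where 7.60% and 24.2% of all genes were. At 1 week 13 were higher and 6 lower, against 11.1% and 33.8% of all genes. Against control keratinocytes the numbers were 6 and 3 at 1 day, where 12.5% and 26.9% of all genes were, and 18 and 6 at 1 week, against 14.5% and 31.4%. Cells of 1 library share its preparation, so these are descriptions.

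Slc2a1 was at 94.4 CPM in the other experimental keratinocytes and 150.4 CPM in the Krt8-led cells at 1 day, and at 127 and 381 CPM at 1 week. It was higher in the Krt8-led cells at both times, by 0.67 and 1.58, as was Slc16a3, by 0.79 and 1.33. Slc16a1 was lower at both, at 46.2 against 14.5 CPM and 40.0 against 10.9 CPM, and Ldhb at 27.7 against 11.7 CPM and 66.1 against 12.6 CPM. The 2 lactate transporters thus lay on opposite sides of the other keratinocytes. Pdk4 was lower at both times, with 35 UMIs (2.21 CPM against 14.7) at 1 day and 3 UMIs (1.02 CPM against 34.9) at 1 week. Hair follicle-like cells were 5912 of the 14473 other keratinocytes at 1 day and 1959 of 2952 at 1 week. In control cells they came next after sebaceous-like cells for Slc16a1, Ldhb and Pdk4. Control suprabasal-like cells at 1 day held 7.12 CPM of Slc16a1 and 1.70 CPM of Pdk4, below the Krt8-led cells. Their Mt4- and Ivl-led clusters held 13.3 and 12.4 CPM of Ldhb, above the Krt8-led cells. The part of the cell mix in these ratios was not tested. Hk2 was below the other keratinocytes and past the fold at 1 week, at 55.7 against 25.1 CPM, and Hk1 was above them, at 52.0 against 94.5 CPM. Pkm was at 338 and 455 CPM at 1 day and at 657 and 1347 CPM at 1 week. Pfkfb3 was at 13.9 and 18.9 CPM at 1 day and at 6.66 and 23.4 CPM at 1 week, past the fold at 1 week. Hif1a was above the other keratinocytes at both times, short of the fold, at 304 against 435 CPM and 161 against 213 CPM. It stayed below the 472 and 467 CPM of control basal-like cells. The 1-week cells were deeper, with a median of 11970 UMIs per cell against 3307 at 1 day.

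**Figure D4:**
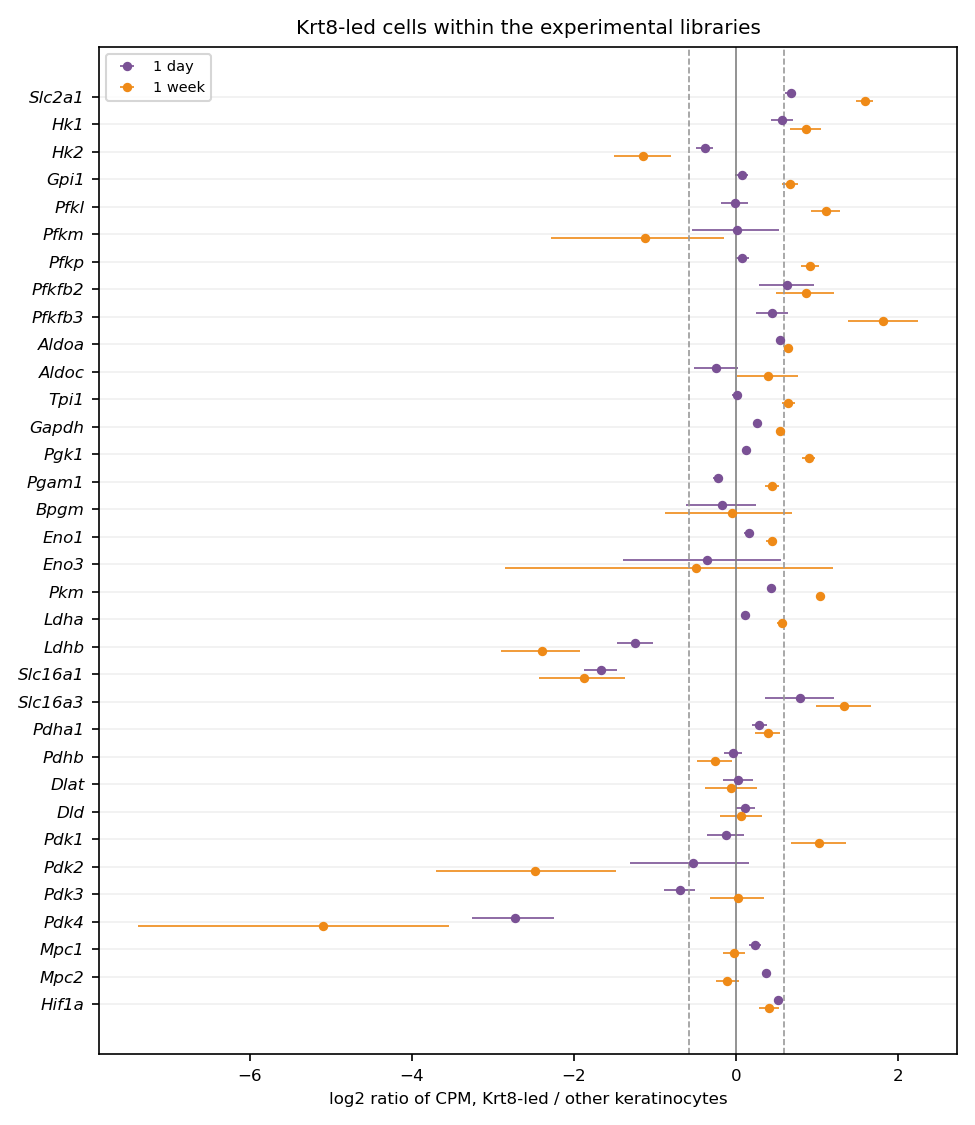
Log2 ratio of the Krt8-led cells to the other keratinocytes of the same experimental library for each of the 34 members, at 1 day (purple) and at 1 week (orange), with bars for the 95% counting intervals and dashed lines at 1.5-fold. Slc2a1 and Slc16a3 lie right of 0 and Slc16a1, Ldhb and Pdk4 left of 0 at both times.

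Immune cells, T cell-like and Langerhans or dendritic cell-like, do not normally use the keratin 14 promoter that drives Cre, and there were 1127 control and 588 experimental cells at 1 day, then 394 and 202 at 1 week. Over both types, 4 of 31 members were higher and 1 lower at 1 day, where 12.6% and 17.9% of all genes were, and 15 and 4 of 29 at 1 week, where 17.4% and 12.3% were. The mix of types moved with the group at 1 day, with 740 T cell-like cells in the control and 103 in the experimental library, so the types were also read apart. In control cells Ldha and Hif1a were below the T cell-like level in Langerhans or dendritic cell-like cells at both times, with log2 ratios of -1.06 and -1.40 for Ldha and -0.99 and -1.72 for Hif1a. Pdk3 was above it, at 2.71 and 3.13. Bpgm, which makes the haemoglobin regulator 2,3-bisphosphoglycerate, was below it, with 42 against 7 UMIs (43.2 and 7.22 CPM) at 1 day and 28 against 1 UMI (56.9 and 1.71 CPM) at 1 week. The 95% counting intervals of its log2 ratio were -3.98 to -1.41 and -10.4 to -2.46.

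In Langerhans or dendritic cell-like cells, 387 and 485 at 1 day, 1 of 27 members was higher and 1 lower, where 13.7% and 6.51% of all genes were. Short of the fold, most lay above the control. The log2 ratio was above 0 for 25 of the 27, and the counting interval lay above 0 for 9 of them. The share of all genes above 0 was not taken. The median log2 ratio was 0.38, against 0.06 over all genes. At 1 week, on 151 and 78 cells, 16 of 26 were higher and 4 lower, where 21.4% and 14.8% were. Ldha was at 178 CPM in control and 632 CPM in experimental cells, Eno1 at 197 and 661 CPM, Pkm at 380.0 and 849.8 CPM and Gapdh at 1006 and 2278 CPM. The log2 ratios were 1.83, 1.75, 1.16 and 1.18. Eno3 had 4 UMIs in the control and 48 in the experimental cells, and Slc16a3 15 and 35. The control UMIs of each were under the limit for a ratio, so both met it only with the experimental UMIs. Both are counted among the 16 higher. Hk2 was lower, at 104 against 55.1 CPM. Cd207, the Langerhans cell lectin, was also lower in these cells at 1 week, at 6857 against 3236 CPM, while 8 listed macrophage genes summed to 3476 and 3742 CPM, 3 of them higher and 1 lower. Of 6 neutrophil genes, which summed to 2785 and 2255 CPM, 5 had 0 UMIs in the control and 1 in the experimental cells, and of the 3 given a ratio 2 were higher and 1 lower. The part of a shift among these cells in the ratios was not tested.

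In T cell-like cells, 3 of 23 members were higher and 3 lower at 1 day, where 16.3% and 21.2% of all genes were. At 1 week 5 of 20 were higher and 2 lower, where 15.5% and 14.5% were. Tpi1 was at 234 and 485 CPM, Pkm at 325 and 627 CPM and Eno1 at 329 and 590.4 CPM, all higher in the experimental library. Hif1a was lower at 288 against 163 CPM, and Hk2 was lower with 33 and 11 UMIs. Krt5 and Krt14, keratinocyte genes that mark free RNA in these droplets, summed to 981 and 1059 CPM in immune cells at 1 day and to 109.6 and 107 CPM at 1 week. In T cell-like cells alone they summed to 1106 CPM in control and 2162 CPM in experimental cells at 1 day, and their part in the 1-day ratios was not tested. In keratinocytes they summed to 6920 and 3870 CPM and to 14230 and 11160 CPM.

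The 1-day libraries held 3 hashtag antibodies each, and the labels do not say whether these mark animals or digestions, so the 6 groups of barcodes are given as values. In keratinocytes, 5 members were above every control group in every experimental group, Slc2a1, Hk2, Slc16a1, Pdhb and Pdk3, where 17.9% of all genes were. Pfkp and Slc16a3 were below in all, where 14.2% of all genes were, and 27 members overlapped. In both directions the members thus stood under the share of all genes. Hk2 was at 41.9, 46.9 and 56.7 CPM in the control groups and at 76.6, 88.0 and 76.6 CPM in the experimental groups. Slc16a3 was at 7.06, 6.24 and 6.86 CPM and at 1.81, 4.74 and 1.47 CPM. For both genes the control and experimental groups did not overlap. Eno1 was at 160.2, 103 and 120.2 CPM in the control groups and at 142, 233 and 133 CPM in the experimental groups, which did overlap. The second experimental group was the highest of the 3 for Eno1, and also for Pkm, Tpi1 and Ldha. In hair follicle-like cells, Slc2a1, Pfkl, Pgk1 and Pdk3 were above in every group, where 10.7% of all genes were, and the other 30 members overlapped. The members stood near this background.

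**Figure D5:**
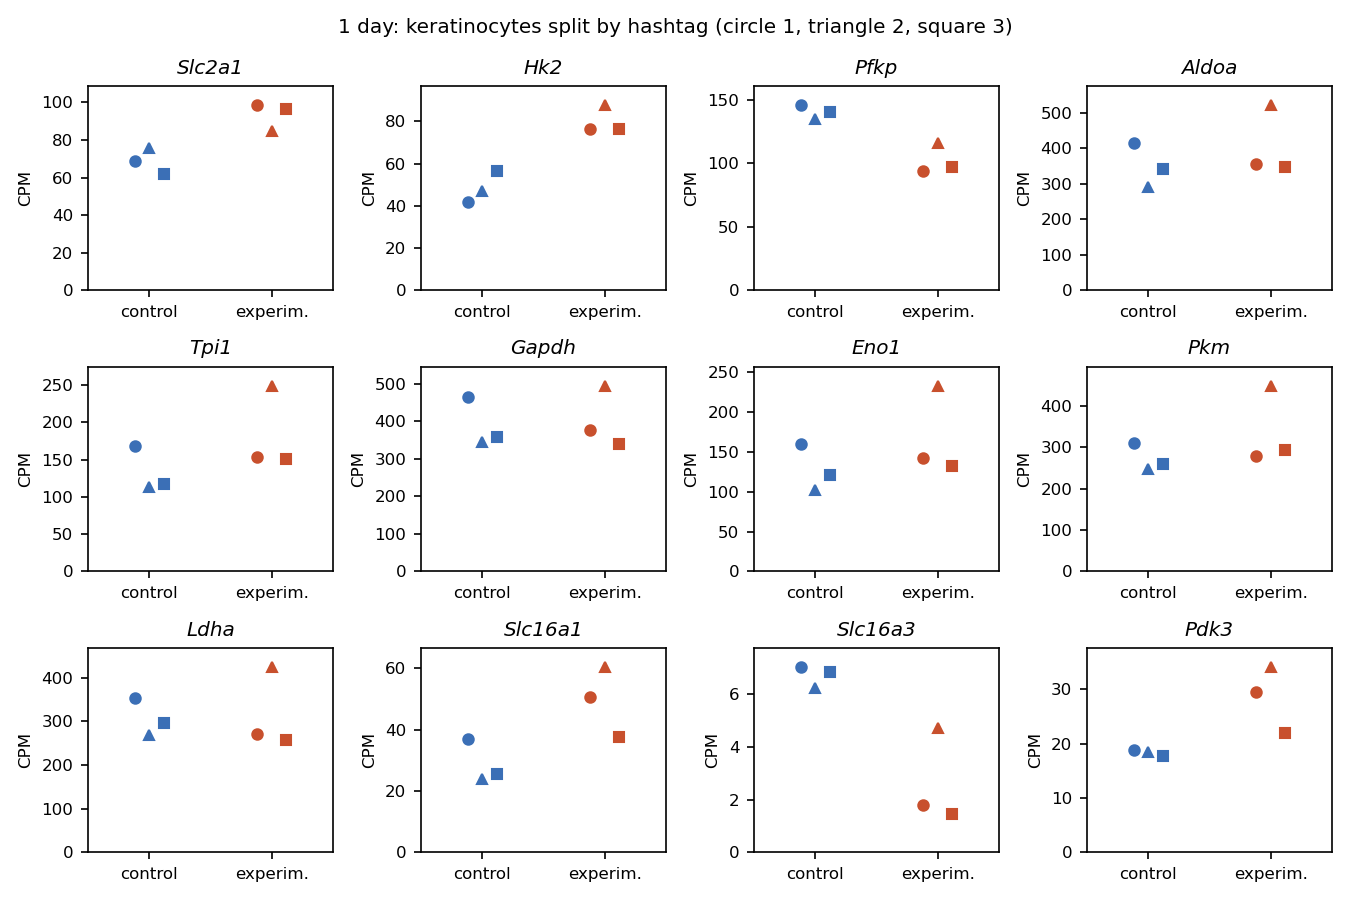
Level of 12 members in keratinocytes in CPM (axis from 0) in each of the 3 hashtag groups of the 1-day control (blue) and experimental (orange) libraries, with a circle, triangle and square for hashtags 1, 2 and 3. The colours do not overlap for Hk2 and Slc2a1 (orange higher) or for Slc16a3 and Pfkp (orange lower), and the second experimental group is the highest of its library for Eno1 and Pkm. Of all genes, 17.9% were apart in this way with the experimental groups higher and 14.2% with them lower.

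The barcodes set aside for their even RNA content numbered 13158 and 11860 in the 1-week pair. In them 18 of 34 members were higher and 1 lower in the experimental library, where 23.0% and 11.0% of all genes were. Pkm was at 289.6 and 866 CPM in them, Gapdh at 568 and 1529 CPM and Hif1a at 294.5 and 193 CPM, the same directions as in keratinocytes. At 1 day 2 of 32 members were higher and 6 lower, where 18.5% and 14.6% were. Fibroblast-like cells, which do not normally use the keratin 14 promoter, were 619 control and 62 experimental at 1 day and 381 and 206 at 1 week. The leading genes of the 1-day cluster held 1 listed fibroblast marker, Col3a1, and also Dct, a listed melanocyte marker. A 1-week cluster led by Crabp1 had no listed fibroblast marker among its 10 leading genes. At 1 day 5 of 25 members were higher and 5 lower in these cells, where 16.2% and 19.9% of all genes were. At 1 week the numbers were 7 and 2 of 27, where 15.7% and 10.3% were.

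Lists of neighbouring pathways were read in all keratinocytes beside the members. Of 18 genes of the citrate cycle, which burns the acetyl-CoA made from pyruvate, 0 were past 1.5-fold at 1 day and 1 was higher at 1 week, Sdhd at 49.3 against 77.9 CPM. Of 7 pentose phosphate genes, which make NADPH from glucose, 0 were past the fold at 1 day and 3 higher at 1 week. Of 9 glycogen genes, 0 were past it at 1 day, and at 1 week 2 were higher and 1 lower. The shares of all genes in keratinocytes are 13.6% higher and 7.19% lower at 1 day and 21.6% and 9.56% at 1 week, so at 1 day no gene of these lists was past a fold that many genes passed. With TMM scaling at 1 week 1 pentose phosphate gene and 0 genes of the citrate cycle were past the fold, and of the glycogen genes 1 was higher and 2 lower.

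Of 7 HIF pathway genes given a ratio, 2 were higher at 1 day and 3 at 1 week. Epas1, which encodes HIF-2α, was at 4.39 and 13.4 CPM at 1 day and at 8.001 and 26.3 CPM at 1 week. Egln3, an oxygen-sensing hydroxylase and HIF target, was at 24.4 and 58.6 CPM at 1 day and at 43.9 and 179 CPM at 1 week. Both were higher in the experimental library of each pair, unlike Hif1a. Of 15 HIF targets outside glycolysis, 7 were higher at 1 day and 8 at 1 week, and 1 was lower at each, with median log2 ratios of 0.48 and 0.68. With TMM scaling 5 were higher at each time, 1 was lower at 1 day and 2 at 1 week, and the medians were 0.43 and 0.51. By CPM the shares of all genes are again 13.6% and 21.6% higher and 7.19% and 9.56% lower, and none was taken with TMM scaling. Car9, a carbonic anhydrase, was higher at both times under either scaling. Bnip3l, Vegfa and Ero1l were higher at both times by CPM, but with TMM scaling Vegfa and Ero1l were short of the fold at 1 day, at 0.56 and 0.54, and Bnip3l at 1 week, at 0.51. Adm, adrenomedullin, was lower at 1 day, at 36.9 against 15.01 CPM. Pdgfb, a growth factor subunit, was higher at 1 day, at 1.05, and lower at 1 week, at -0.60. Of 8 regulators of glucose metabolism, 4 were higher at 1 day and 3 at 1 week, among them Foxo3, at 15.4 against 41.9 CPM and 31.8 against 71.0 CPM. With TMM scaling 2 were higher at each time, Foxo3 still among them, and at 1 week 1 was lower, Trp53 at -0.61, named after its value was seen.

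Of 37 further isoforms of glycolysis and transport, 26 were given a ratio at 1 day, with 4 higher and 4 lower, and 27 at 1 week, with 5 higher and 4 lower, against the same shares of all genes, 13.6% and 7.19% at 1 day and 21.6% and 9.56% at 1 week. With TMM scaling the 1-week numbers were 3 higher and 4 lower. Gpd1, which moves NADH electrons into glycerol 3-phosphate, was at 0.269 and 1.19 CPM at 1 day and at 0.422 and 5.03 CPM at 1 week. Slc2a12, a glucose transporter, was at 5.28 and 1.90 CPM at 1 day and at 14.6 and 1.68 CPM at 1 week. Gpd1 and Fbp1, a gluconeogenic phosphatase, were higher at both times, and Slc2a12 and Gapdhs, the sperm-type Gapdh, lower at both.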

How the data were processed

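Single-cell RNA was measured in 4 libraries, 1 per group. The authors deposited UMI counts per gene and barcode for each library, made with Cell Ranger 5.0.1 on mm10, per the submitters' processing notes, which also name Seurat; their filters are not given in the sources used here. Barcodes under 500 UMIs, under 300 genes or over 15% mitochondrial UMIs were left out. Likely doublets were removed by a simulated-doublet score (0.8% per 1000 barcodes). Each time point was clustered separately (2000 variable genes without the members, Pearson residuals, 30 principal components, 15 neighbours, Leiden resolution 1; igraph 0.11.9, leidenalg 0.10.2, Python 3.11.15) and clusters were named from listed markers. Cluster and library pairs whose abundant nuclear genes varied between barcodes almost as in sampling noise (chi-square per degree of freedom under 2) were set aside; that limit and the 20-cell limit for a ratio were chosen after seeing the data. Keratinocytes are the basal-, suprabasal-, granular-, hair follicle- and sebaceous-like cells and those without a class. UMIs were summed per library and cell set and scaled to CPM, with exact conditional binomial 95% intervals. The calculation was tested on simulated data. All 34 members given a ratio are named. Full values are given for members past 1.5-fold the same way at both times or past 2-fold once, and for 10 pathway steps whatever their values. Of other lists, genes past 2-fold the same way at both times are named; Sdhd, Adm, Pdgfb, Bnip3l, Vegfa, Car9 and Ero1l were named after their values were seen. The members and the lists were chosen with earlier results of these data known. Aldoa has a second gene identifier with 2 to 15 UMIs per library, which was not added. Alternatives included TMM factors (edgeR 4.0.16), other filters and other sets of cells. Gene positions were matched to GENCODE M21, which held 99.6% of the gene identifiers.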

Additional observations from a re-analysis of the deposited data

How the results depend on the processing

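Each count and median of all keratinocytes, and each of 12 members, was recomputed under 14 alternatives, and the cause of the changes was not tested. The median of the members at 1 day, 0.08, was 0.15 in hair follicle-like cells alone and -0.01 without mitochondrial and ribosomal genes, and at 1 week, 0.30, it was 0.13 with TMM factors. The 4 members higher at 1 day became 2 with TMM factors, 2 without mitochondrial and ribosomal genes, 2 with a mean of per-cell CPM, and 1 with all cells, with Krt8-led cells counted or in hair follicle-like cells alone. The 1 lower member at 1 day became 2 without mitochondrial and ribosomal genes or with any UMI, and 0 in hair follicle-like cells. The 2 lower members at 1 week became 1 with all cells, with doublets kept, with barcodes set aside counted, with cells that have a class only, with the mean of per-cell CPM or in hair follicle-like cells. The count of 11 higher at 1 week ranged from 8 to 14. Apart from hair follicle-like cells, the share of all genes past the fold was not taken under these alternatives. Of values past the fold, the direction turned for Slc16a3 at 1 day, at 0.66 in hair follicle-like cells, and for Slc16a1 at 1 week, at -0.18 there. The 1-day hashtag groups of hair follicle-like cells overlapped for Slc16a3. Values short of the fold also changed sign there at 1 week, Slc16a3 to 3.18, Slc2a1 to 0.66, Pfkp to 0.34 and Ldhb to -0.31. At 1 day Gapdh, Ldha, Ldhb, Pdk1, Pdk4 and Hif1a changed sign under at least 1 alternative. Hk2 at 1 day was short of the fold under 7 alternatives (0.29 to 0.55) and Slc16a1 under 4 (0.20 to 0.56). Counting the barcodes set aside, leaving out cells without a class, and reading the granular-, basal-, suprabasal-, sebaceous- and follicle-like clusters or the hashtags apart, and the TMM values of other lists were chosen after seeing the data. No paired analysis was possible because each group has 1 library, and none could be left out.

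Counting error alone is covered by the intervals. Whether a difference between libraries exceeds that between animals cannot be read from 1 library per group, and genotype, digestion and animal cannot be told apart here.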

Other observations

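Genes of red blood cells, 5 listed, summed to 159.5 CPM in 1-week control keratinocytes and 3.11 CPM in experimental keratinocytes.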
